A study of Mus musculus with 563 samples.

Results

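Young haematopoietic stem cells (HSCs) whose RNA already contained genes of early progenitors were set against young HSCs without them. The 74 cells compared were 44 progenitor-like and 30 marker-free cells, out of 63 and 71 young cells of the first and second count table that passed the cell filter, and of 563 cells in the series. The classes were chosen by the measured RNA of Cd34, Flt3 and Plac8: a progenitor-like cell had at least 2 of the 3 at 10 or more CPM (reads scaled to 1000000 nuclear gene reads of the cell), and a marker-free cell had none at that level. The other 60 young cells, with exactly 1 of the 3, form a middle class and entered no difference. A cell was kept with at least 50000 nuclear gene reads, at least 1000 nuclear genes read and at most 20% mitochondrial reads.

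The young cells carried the Gfp-Lc3 genotype, a transgene that fuses green fluorescent protein to the autophagosome protein LC3, and were taken from bone marrow of young animals at steady state. The old cells, used here only for a side-by-side view, had the same genotype, tissue and state and carry LO, MID or HI in their titles, which the labels do not explain further. Cells were stained for surface proteins and sorted singly into plates, but the labels used here do not name the proteins, so no gate can be set beside the 3 genes. Each library is 1 cell, made with a modified Smart-seq2 protocol that reads along the whole transcript. No label names an animal, a litter or a plate, so the young cells count as 1 sample, cells are not replicates, and no test or p-value is given. What stands in for a repeat is the division of the series into a first and a second count table. The first table held 18 progenitor-like and 18 marker-free cells, the second 26 and 12. Reads of Y-linked genes were at 20 or more in 18 of 18 progenitor-like and 17 of 18 marker-free cells of the first table and in 0 of 26 and 0 of 12 of the second, where all 26 and all 12 had 20 or more Xist reads. A difference seen in both tables was thus seen in cells with and in cells without Y-linked RNA, and between the tables sex-linked RNA and any other difference cannot be told apart.

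HSCs sit at the top of blood formation, divide rarely and can rebuild the whole blood system on transplantation. Multipotent progenitors, their first descendants, divide more and lose long-term repopulation. Cd34 encodes a surface sialomucin that appears on mouse HSCs as they leave the most dormant state. Flt3 encodes a receptor tyrosine kinase of multipotent and lymphoid-primed progenitors, and Plac8 encodes a small cysteine-rich protein found in myeloid and lymphoid progenitors. Leaving quiescence involves CDK6 and MYC, then the licensing of replication origins by the MCM helicase, DNA synthesis and mitosis.

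The 3 genes were combined unevenly. In progenitor-like cells Cd34 was read at a median of 399 CPM in the first table and 351 CPM in the second, with highest values of 1368 and 847 CPM. In marker-free cells its median was 0 in both tables and its highest values were 9.90 and 9.25 CPM. Of the 44 progenitor-like cells, 19 had Cd34 with Flt3, 15 Cd34 with Plac8, 8 all 3 genes and 2 Flt3 with Plac8. Cells with all 3 were 7 in the first table and 1 in the second. In the middle class, 52 cells had Cd34 alone, 3 Flt3 alone and 5 Plac8 alone. Cd34 was therefore at the limit or above in 42 of the 44 progenitor-like cells, and the step from 1 gene to 2 is mostly the addition of Flt3 or Plac8. The cells nearest to the limit had 9.90 and 14.1 CPM of Cd34 in the first table and 9.25 and 20.1 CPM in the second. Flt3 had 9.90 and 10.7 CPM on either side in the first table and 7.59 and 11.2 CPM in the second, and Plac8 had 5.39 and 26.9 CPM and 9.36 and 11.1 CPM. At the median depth of 271443 nuclear reads, 10 CPM is 2.71 reads. All these values describe the choice of cells and support nothing further.

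**Figure D1:**
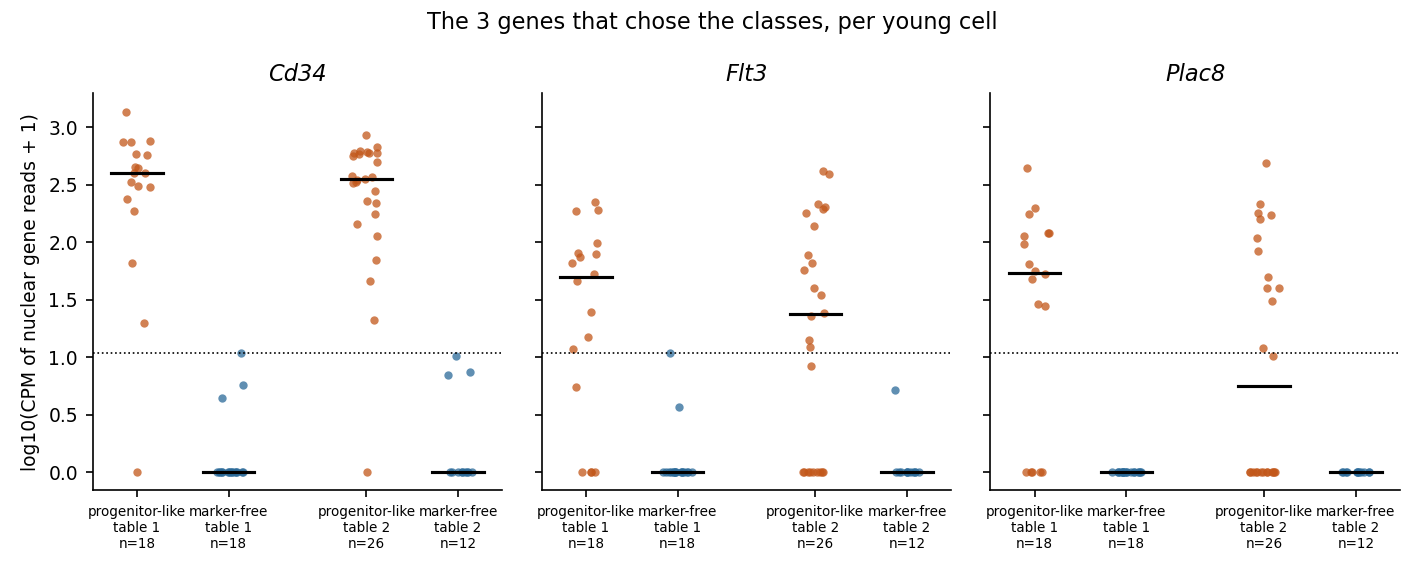
CPM of Cd34, Flt3 and Plac8 in each progenitor-like cell (orange) and each marker-free cell (blue) of the first and second table, on a log10(CPM + 1) axis; black bars are medians and the dotted line is the limit of 10 CPM. Marker-free cells lie at or near 0 for all 3 genes by choice, and Cd34 is the gene read in most progenitor-like cells, with medians of 399 and 351 CPM.

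Progenitor-like cells were also the deeper libraries. Their nuclear gene reads had a lowest value of 61180, a median of 351238 and a highest of 980182, against 60447, 214845 and 622152 in marker-free cells. The median was 441062 against 212724 reads in the first table and 286070 against 218718 in the second. They had a median of 8086 nuclear genes read, against 7047 in marker-free cells. After each cell was thinned to 100000 reads, which leaves out 1 progenitor-like and 2 marker-free cells, the medians were 6505 and 6106 genes. Reads of the added spike-in RNA made up a median of 1.24% of reads in progenitor-like and 2.81% in marker-free cells, with 0.969% against 3.41% in the first table and 1.85% against 1.52% in the second. Mitochondrial reads had medians of 1.90% and 2.55%. Depth thus moved with the classes, and its part in the results was not tested beyond the thinned values given here and in the closing section. The 4 sums of reads that the differences rest on were 7890533 and 8955440 nuclear reads for progenitor-like cells and 4746556 and 2544248 for marker-free cells.

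Markers of other cell types were read in cells of both classes, and their part in the differences was not tested beyond the counts without such cells in the closing section. A read in 3 or more markers of B cells, of T and NK cells, of neutrophils, of monocytes and macrophages, or of mast cells was found in 0 of 44 progenitor-like and 0 of 30 marker-free cells, which allows shares of up to 8.04% and 11.6% by the upper bound of an exact 95% binomial interval (Clopper-Pearson, counting error alone). At least 3 late erythroid markers were read in 9 of 44 and 6 of 30 cells, and at least 3 platelet granule markers in 5 of 44 and 4 of 30. At least 3 dendritic cell markers were read in 1 of 44 and 1 of 30, and endothelial or stromal markers in 2 of 44 and 1 of 30. Over all these lists, 12 of 44 and 11 of 30 cells had 3 or more markers of some other type. Genes that define more mature progenitors were read at low levels or in few cells of both classes. Mpo, the myeloperoxidase of granulocyte and monocyte progenitors, had 0.774 and 0.711 CPM in progenitor-like cells and 0.810 and 0 CPM in marker-free cells. Dntt, the terminal transferase of lymphoid progenitors, was read in 3 of 44 and 2 of 30 cells. Cd48, a surface protein of multipotent progenitors that is used to gate HSCs out, was read in 1 of 44 and 0 of 30 cells, and Il7r, Rag1 and Rag2 in none of either class. Meanwhile Kit, the stem cell factor receptor, stood at 1753 and 1725 CPM in progenitor-like cells against 1607 and 1320 CPM in marker-free cells, and Meis1, a homeobox factor of HSCs, at 930 and 966 CPM against 817 and 793 CPM. Kit and Meis1 were read in all 44 and all 30 cells. Multipotent progenitors share Kit and Meis1, so these 2 genes do not set HSCs apart from them. Procr, the EPCR receptor gene of HSCs, was read in 24 of 44 and 23 of 30 cells. Slamf1, the CD150 receptor gene, was read in 17 of 44 and 11 of 30. The name progenitor-like therefore rests on the choosing genes. Defining genes of committed progenitors were read at low levels or in few cells of either class, and the HSC identity list is described below.

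Differences are log2(CPM + 1) of the summed reads of progenitor-like cells minus the same for marker-free cells, taken in each table and averaged. A gene met the size rule when this average was at least 1 in size, at least 0.58 in the same direction in each table, with 20 or more CPM and a read in at least 20% of the cells of the higher class in each table, and with no single cell giving over 20% of that class's reads. Of 10547 genes above the level filter, apart from the 3 that chose the cells, 564 were higher in progenitor-like cells by this rule (5.35%) and 87 were lower (0.825%). Numbered Gm and Rik entries, AC and BC clones and pseudogenes could not be called, but they count among the 10547. Both percentages are thus lower than they would be for named genes alone. The gene lists below hold named genes, so their shares and those of all genes are not on an equal footing. At least 1.5-fold in the same direction in each table, with no other condition, were 13.9% of genes higher and 6.94% lower. A further 450 genes on the higher side and 350 on the lower failed the single-cell limit but met those on size, direction and CPM. The share of cells with a read was not asked of these. The single-cell limit is harder to meet with 30 cells than with 44. The counts in the 2 directions are therefore not on an equal footing. The median difference over all genes was 0.17, with 0.13 in the first table and 0.19 in the second. Across genes, which are not replicates, the differences in the 2 tables had a Pearson correlation of 0.26.

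**Figure D2:**
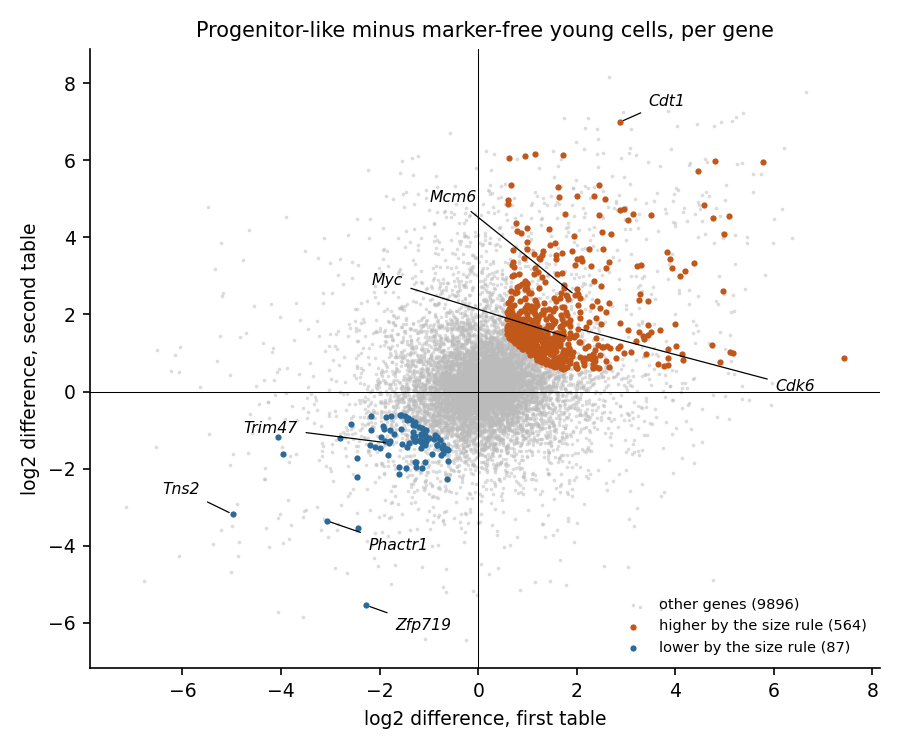
Log2 difference, progenitor-like minus marker-free young cells, in the first table (horizontal) and in the second table (vertical) for 10547 genes; orange genes were higher and blue genes lower by the size rule. The 564 orange and 87 blue genes lie away from 0 in both tables because the rule asks for it, and the grey genes spread on all sides.

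Genes of DNA replication were higher in progenitor-like cells. Of 33 S phase genes above the level filter, from a list of 38, 16 met the size rule upward and 0 downward, beside the 5.35% and 0.825% of all genes. All 33 had a positive difference, and 31 were positive in both tables, against 36.01% of all genes. For 15 of the 33 a single cell gave over 20% of the progenitor-like reads, and for 31 a single cell gave over 20% of the marker-free reads. The median difference of the 33 was 2.60, with 2.05 in the first table and 2.53 in the second. Mcm6, a subunit of the replicative helicase, was read in 18 of 18 progenitor-like cells of the first table with a lowest value of 25.5, a median of 398 and a highest of 2346 CPM, against 0, 35.98 and 851 CPM in marker-free cells. In the second table these values were 0, 260 and 1949 CPM against 0, 37.2 and 414 CPM. The ranges overlap in both tables, and both medians are higher in progenitor-like cells. In the sums Mcm6 differed by 2.23 (1.97 and 2.49 in the tables). Mcm2 differed by 2.60, Mcm3 by 1.69, Mcm4 by 2.14 and Mcm7 by 1.23. Mcm5 differed by 6.17 but did not meet the rule, since 25.6% of its progenitor-like reads came from 1 cell. Pcna, the sliding clamp of the polymerases, had 58.2 and 78.5 CPM against 14.6 and 38.2 CPM, and Tyms, which makes the thymidine nucleotide, 149.8 and 144.4 CPM against 16.2 and 4.92 CPM. Chaf1b, a histone chaperone subunit, and Rfc3, a clamp loader subunit, were the members nearest to 0, at 0.58 and 0.79. The direction was not the same for every pair of choosing genes. With Flt3 and Plac8 alone as the choosing pair, which leaves 8 and 2 progenitor-like cells against 40 and 42 cells with neither, the S phase median was −0.65 and that of G2 and M phase genes −1.74.

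S phase genes are known to share binding sites of E2F factors, and genes of mitosis a short element called CHR. The promoter windows of Mcm6, Mcm3 and Pold3 (polymerase delta subunit) are printed because these were the most-read S phase genes that met the size rule with and without the cycling cells described next and hold an E2F-type match, chosen after their values were seen, and that of Cdc20 because it had the largest difference among mitosis genes that hold a CHR. The windows run from 250 bases before to 50 after a RefSeq start on GRCm38.p6 and are written 5′ to 3′ along the gene; capitals mark the matches.
Mcm6 (chr1:128359656-128359955, minus strand): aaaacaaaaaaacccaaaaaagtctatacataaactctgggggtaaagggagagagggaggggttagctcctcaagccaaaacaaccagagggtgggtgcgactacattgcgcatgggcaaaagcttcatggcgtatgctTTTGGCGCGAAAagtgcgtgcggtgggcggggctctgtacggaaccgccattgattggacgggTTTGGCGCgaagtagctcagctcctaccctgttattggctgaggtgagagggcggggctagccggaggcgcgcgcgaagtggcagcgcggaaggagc
Mcm3 (chr1:20820263-20820562, minus strand): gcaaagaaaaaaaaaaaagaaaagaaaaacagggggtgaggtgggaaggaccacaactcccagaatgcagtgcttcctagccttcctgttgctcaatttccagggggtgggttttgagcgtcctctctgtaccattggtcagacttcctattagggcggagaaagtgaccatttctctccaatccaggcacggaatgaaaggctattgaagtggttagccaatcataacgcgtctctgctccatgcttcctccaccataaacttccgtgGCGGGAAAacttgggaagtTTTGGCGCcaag
Pold3 (chr7:100121453-100121752, minus strand): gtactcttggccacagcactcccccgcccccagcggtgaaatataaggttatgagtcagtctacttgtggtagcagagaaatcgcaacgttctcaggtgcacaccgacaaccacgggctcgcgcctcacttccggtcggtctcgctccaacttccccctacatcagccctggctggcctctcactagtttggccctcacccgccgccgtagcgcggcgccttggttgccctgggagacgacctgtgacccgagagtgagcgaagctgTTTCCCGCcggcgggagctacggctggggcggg
Cdc20 (chr4:118437294-118437593, minus strand): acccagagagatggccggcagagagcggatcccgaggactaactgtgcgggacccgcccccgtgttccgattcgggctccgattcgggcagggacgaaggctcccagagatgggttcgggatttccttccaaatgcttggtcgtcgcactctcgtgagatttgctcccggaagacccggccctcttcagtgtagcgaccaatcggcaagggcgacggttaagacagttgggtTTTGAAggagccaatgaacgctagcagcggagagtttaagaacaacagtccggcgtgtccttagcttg
The letters searched on both strands for E2F were TTTCCCGC, TTTCGCGC, TTTGCCGC and TTTGGCGC, and for CHR TTTGAA. Mcm6 had 3 matches, the first beginning 110 bases and the last 47 bases before the start; the first overlaps its neighbour. An E2F-type match lay in the windows of 14 of 32 matched S phase genes (43.8%), against 5.05% of the 7967 matched genes above the level filter and 2.61% of all 27025 genes. A CHR lay in 25 of 33 matched G2 and M phase genes (75.8%), against 14.2% and 20.2%. A match is a run of letters and not a measured binding site, and genes with several starts had more windows to hold one.

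Genes of G2 and mitosis had larger differences, which came from few cells. All 40 listed genes passed the level filter with a positive difference, and their median was 4.25 (2.97 in the first table and 5.46 in the second). Only Smc4, a condensin subunit, met the size rule, and for 38 of the 40 a single cell gave over 20% of the progenitor-like reads. By the number of these 40 genes read, young cells had either 18 or fewer, or 26 or more. Cells with 20 or more, called cycling here by a limit set after the values were seen, were 10 of 44 progenitor-like cells (22.7%, exact Clopper-Pearson 95% interval 11.5% to 37.8%) and 1 of 30 marker-free cells (3.33%, 0.0844% to 17.2%). By table they were 4 of 18 against 1 of 18 and 6 of 26 against 0 of 12. After thinning to 100000 reads they were 10 of 43 against 0 of 28. The 1 marker-free cycling cell had 61104 nuclear reads, too few to be thinned, so the 0 comes from its absence. Mki67, the Ki-67 proliferation antigen, had 521 and 675 CPM against 46.8 and 9.84 CPM, and Aurkb, a mitotic kinase, 120.1 and 218 CPM against 0.202 and 0 CPM.

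Without the 11 cycling cells, replication genes were still higher in progenitor-like cells, by less. The limit counts G2 and M phase genes alone, so the cells left cannot be called non-cycling. Among those kept were progenitor-like cells with S phase sums of 12209 and 9075 CPM, each with 8 G2 and M phase genes read. The highest marker-free sum was 4185 CPM. Leaving out the 11 cells left 14 and 20 progenitor-like and 17 and 12 marker-free cells. Of 10404 genes, 302 were higher by the size rule (2.9%) and 91 lower (0.875%), and 10.7% were at least 1.5-fold higher and 7.78% lower in each table. Of the 564 genes higher with all cells 233 met the rule here too, and of the 87 lower genes 60. The median over all genes was 0.09. The G2 and M phase genes chose the cells left out, so their values are a description: Mki67 then differed by −0.90, and the median over the 10 genes above the filter was 0.26 (−0.27 and 0.78). The S phase median was 1.69 (1.44 and 1.72), with 7 of 29 genes higher and 0 lower. The 7 were Mcm2, Mcm3, Mcm6, Dut, Pold3, Rpa2 and E2f1. Under the stricter limit of fewer than 8 G2 and M phase genes read, which keeps 6 and 12 progenitor-like and 15 and 10 marker-free cells, the S phase median was 1.02.

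Medians over cells of the replication genes went up with the number of choosing genes. The cells overlapped, with S phase sums of 219 to 4185 CPM with 0 genes and 575 to 15327 CPM with 2. Median nuclear reads over both tables together also rose, at 214845, 277046, 323168 and 418560 with 0, 1, 2 and 3 genes. The sums were not thinned, and the part of depth in them was not tested. The summed CPM of the S phase list had medians of 1136, 2045, 2980 and 3829 in first-table cells with 0, 1, 2 and 3 of the choosing genes. In the second table the medians were 1076, 1512, 2702 and 4583, where the last is 1 cell. The summed CPM of the HSC identity list ran the other way, with medians of 11466, 10411, 10190 and 7537 in the first table and 12812, 10140, 9980 and 6263 in the second. The medians of cells with 1 gene thus lay between those of the classes in both lists and both tables. HSC identity genes summed to 5046 to 15362 CPM in progenitor-like and to 9689 to 17803 CPM in marker-free cells.

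**Figure D3:**
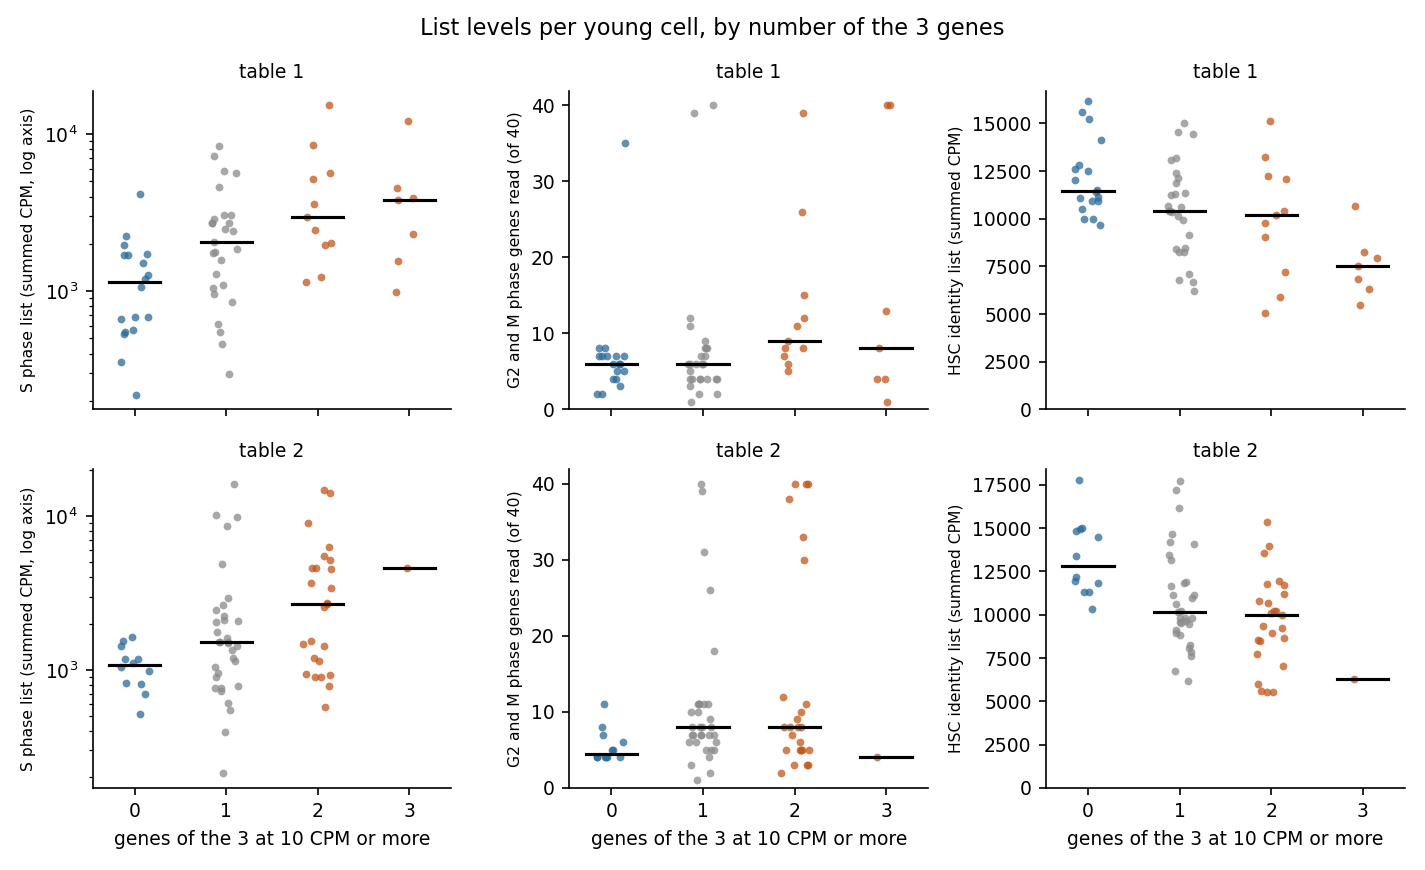
Summed CPM of the S phase list (left, log axis), number of 40 G2 and M phase genes read (middle) and summed CPM of the HSC identity list (right) per young cell, by the number of choosing genes at 10 CPM or more, for the first table (top) and the second (bottom); blue is 0, grey 1, orange 2 or 3 genes, and black bars are medians. S phase medians go up and HSC identity medians go down from 0 to 3 genes, and the cells with 26 or more G2 and M phase genes are mostly orange or grey.

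Genes of HSC identity were lower in progenitor-like cells. All 33 listed genes passed the level filter. Their median difference was −0.73 (−0.54 and −0.65). Of the 33, 28 lay below 0 (84.8%, against 40.2% of all genes), and 23 were below 0 in both tables (69.7%, against 21.3%). The size rule was met by 4 of 33 downward and 0 upward, beside 0.825% and 5.35% of all genes. Trim47, a RING finger protein of the TRIM family, had a lowest value of 0, a median of 138.3 and a highest of 424 CPM in first-table progenitor-like cells, against 6.94, 495 and 1949 CPM in marker-free cells. In the second table these were 0, 207 and 2112 CPM against 197, 911 and 2272 CPM. It was read in all 30 marker-free cells and in 37 of 44 progenitor-like cells, and differed by −1.57. Ptpn14, a tyrosine phosphatase, differed by −1.59, with 24.1 and 51.7 CPM against 113.2 and 103.7 CPM. Mllt3, a chromatin reader that maintains human HSCs in culture, differed by −1.10, with 272 and 197 CPM against 486 and 512 CPM. Fgd5, a nucleotide exchange factor used as an HSC reporter, differed by −1.04, with 42.3 and 102.8 CPM against 105.1 and 178 CPM.

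Several better-known HSC genes had differences of the same sign without meeting the rule. Mecom, the EVI1 transcription factor that HSCs need, had 212 and 216 CPM in progenitor-like cells against 405 and 339 CPM in marker-free cells, a difference of −0.79 (−0.93 and −0.65). Procr, the EPCR surface receptor of HSCs, had 115.99 and 81.8 CPM against 261 and 115.4 CPM and was read in 24 of 44 against 23 of 30 cells. Tek, the angiopoietin receptor, differed by −1.83, Cdkn1c, the p57 cell cycle inhibitor, by −1.30 and Hoxb5 by −1.31. For 14 of the 33 listed genes a single cell gave over 20% of the marker-free reads, and for 7 over 20% of the progenitor-like reads. Sult1a1, a sulfotransferase, differed by −1.93, but 1 cell gave 40.0% of its marker-free reads, and it overlaps Sgf29, whose reads cannot be told apart from it without strand. Meis1 and Kit, which multipotent progenitors share, lay at 0.24 and 0.26. Hoxa9, at 0.40, and Slamf1, the CD150 receptor, at −0.31 had opposite signs in the 2 tables. Vldlr went against its list with a difference of 2.89, with 64.7% of its marker-free reads from 1 cell. Without the cycling cells the list's median was −0.63 (−0.53 and −0.80), Trim47 and Ptpn14 still met the rule, and Mllt3 and Fgd5 stood at −0.85 and −0.94.

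The 12 genes with the lowest differences that met the rule held no listed HSC gene. Tns2, a tensin of focal adhesions on chromosome 15 (GRCm38, 102100413 to 102116401), had 4.90 and 12.3 CPM in progenitor-like cells against 185 and 120 CPM in marker-free cells, a difference of −4.08 (−4.98 and −3.19). Its 1231 reads in marker-free cells have an exact 95% Poisson interval of 1163 to 1302, which covers counting error alone. It was read in 14 of 44 and 20 of 30 cells, with highest values of 36.96 and 58.9 CPM against 985 and 860 CPM. Phactr1, a regulator of protein phosphatase 1 and actin on chromosome 13 (42680623 to 43138526), differed by −3.21 and was read in 13 of 44 against 19 of 30 cells. Clca3a1, a regulator of calcium-activated chloride channels, had 8.39 and 22.2 CPM against 64.4 and 52.6 CPM. Lpar6, a lysophosphatidic acid receptor, was read in 24 of 44 against 28 of 30 cells and differed by −1.79. It lies inside an intron of Rb1, which differed by −1.96, so without strand reads of the pair cannot be told apart. Arid3a, a DNA-binding factor of blood and B cells, differed by −2.62. The others of the 12 were Zfp719, a zinc finger gene, at −3.91, Chil5, a chitinase-like gene, at −2.99, Ankrd33b at −2.79, Snx13, a sorting nexin, at −2.34, Scyl2 at −2.09, Ing2, a reader of histone methylation, at −1.87, and Fastk at −1.79. With all cells the rule itself places the 12 below 0 in both tables. They also lay there without the cycling cells, of which only 1 was marker-free. Scyl2, Fastk and Lpar6 are outside the 12 lowest without the cycling cells, whose places Ikzf5 (−2.28), Fads2 (−2.08) and Ehbp1 (−2.07) took.

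Among the 12 highest, several belong to the cell cycle. Cdca5, the sororin subunit of cohesin, had 53.7 and 60.8 CPM in progenitor-like cells and 0 reads in marker-free cells, at least 145-fold higher against a floor of 3 reads over the whole class, both tables together. Such a floor covers counting error alone, since reads were counted without molecular identifiers, and it does not cover the spread between cells. Cdca2, which brings a phosphatase to chromosomes, had 83.996 and 61.6 CPM against 2.02 and 0 CPM. Cdt1, which loads the MCM helicase, had 102.3 and 125.8 CPM against 13.2 and 0 CPM, and Dtl, the adaptor of the ubiquitin ligase that removes Cdt1, 139.5 and 122.8 CPM against 41.9 and 0.757 CPM. Nrm, a protein of the inner nuclear membrane, had 170.2 and 109.2 CPM against 0 and 59.8 CPM, and without the cycling cells its second-table difference was −0.39. Slc29a1, a nucleoside transporter on chromosome 17 (45585200 to 45599606), differed by 3.91 with 26 of 44 against 11 of 30 cells read. The other members are described here by other roles. Gatm, an enzyme of creatine synthesis, differed by 5.09, P2ry2, a nucleotide receptor, by 4.63, and Cdyl2, a chromodomain protein, by 4.71. Stn1, of the complex that caps telomeres, differed by 4.04. Sdf2l1, a chaperone partner of the endoplasmic reticulum, and Tst, a mitochondrial sulfurtransferase, had 0 marker-free reads and were at least 69.3-fold and 58.1-fold higher against the same floor. Of the 12, 9 were read in 23 or fewer of the 44 progenitor-like cells. Without the cycling cells, Cdyl2, Stn1, Dtl and Slc29a1 still met the rule, at 4.84, 4.06, 3.74 and 3.47.

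Cdk6 and Myc were higher in progenitor-like cells. Of the G1 and quiescence list, 13 of 22 genes (59.1%) lay below 0, beside 40.2% of all genes. Cdk6, the G1 kinase whose level sets how fast HSCs exit quiescence, had a lowest value of 41.6, a median of 516 and a highest of 2958 CPM in first-table progenitor-like cells, against 0, 117.8 and 907 CPM in marker-free cells. In the second table it had 0, 224 and 1670 CPM against 0, 38.6 and 526 CPM. It differed by 1.83 (2.02 and 1.63). Myc, the growth transcription factor on chromosome 15 (61985391 to 61990374), had medians of 164 and 514 CPM in progenitor-like cells against 4.91 and 79.2 CPM in marker-free cells, was read in 43 of 44 against 22 of 30 cells, and differed by 1.62 (1.85 and 1.40). Without the cycling cells these genes differed by 1.70 and 1.72; Myc still met the rule and Cdk6 did not. Of 29 MYC and ribosome biogenesis genes above the filter, 3 met the rule upward and 0 downward, beside 5.35% and 0.825% of all genes, and their median was 0.55 (0.28 and 0.67). The 3 were Myc itself, Dkc1, the dyskerin of ribosomal RNA modification, at 1.65 and Srm, spermidine synthase, at 2.41. Nucleolar Gnl3 stood at −0.25 and Bop1 at −0.89, so members of the list differed in sign. Of 22 G1 and quiescence genes, whose median was −0.35 and −0.12 after thinning, Cdk6 and the stress-response gene Ndrg1 (1.59) met the rule upward and Zfp36 (−1.28), which promotes decay of AU-rich RNAs, downward. Rbl2, Cdkn1b and Txnip, genes linked to cell cycle arrest, stood at −0.53, −0.57 and −0.59.

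**Figure D4:**
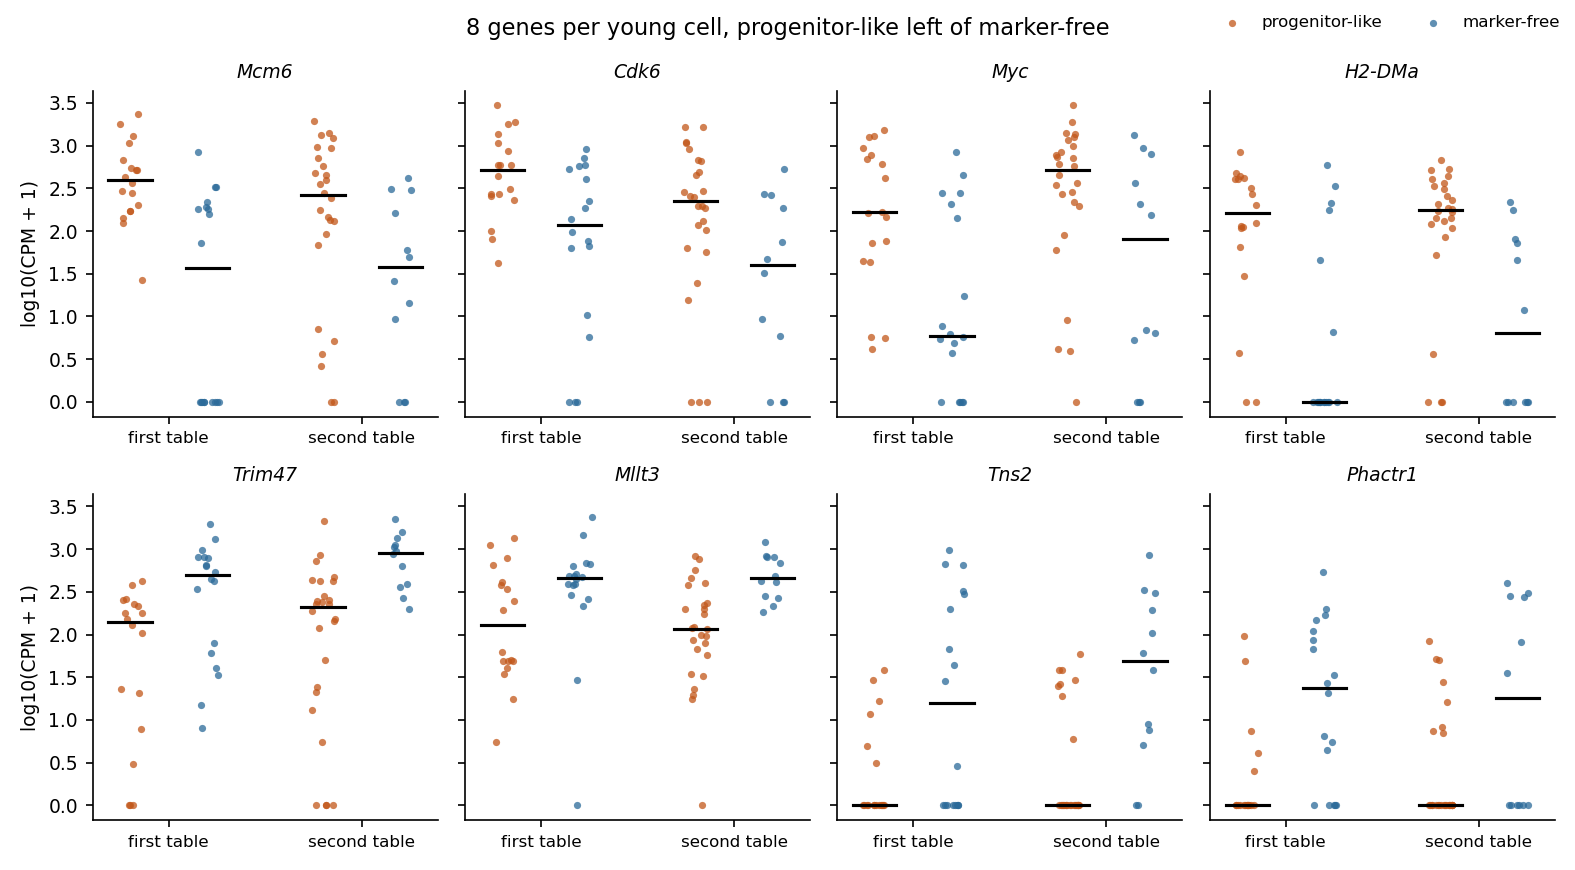
CPM of 8 genes in each progenitor-like cell (orange, left of each pair) and each marker-free cell (blue, right) in the first and second table, on a log10(CPM + 1) axis with medians as black bars; the 8 were picked after their values were seen. Mcm6, Cdk6, Myc and H2-DMa have higher medians and Trim47, Mllt3, Tns2 and Phactr1 lower medians in progenitor-like cells of both tables, with overlapping cells throughout.

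Surface and antigen presentation genes of progenitors were also examined. H2-DMa, which loads peptides on MHC class II, had medians of 163 and 176 CPM in progenitor-like cells against 0 and 5.397 CPM in marker-free cells, was read in 39 of 44 against 12 of 30 cells and differed by 2.33 (2.60 and 2.06). It was the only one of 17 listed MHC and antigen presentation genes to meet the rule, beside 5.35% of all genes upward and 0.825% downward. The list's median was 0.57 (0.45 and 0.67), but −0.76 for the 7 and 1 cells with all 3 choosing genes. The class II chains H2-Ab1 and Cd74 differed by 2.52 and 2.54, but 37.1% and 55.6% of their progenitor-like reads came from 1 cell, and without the cycling cells they stood at 1.75 and 0.81. Among class I genes, H2-K1 stood at 0.03, B2m at −0.13 and H2-D1 at −0.27. Cd27, a receptor of early lymphoid and multipotent progenitors, was read in 44 of 44 against 24 of 30 cells. It had 506 and 388 CPM in progenitor-like cells against 72.3 and 293 CPM in marker-free cells, so its difference was 2.79 in the first table and 0.40 in the second and did not meet the rule. Without the cycling cells it did, at 1.97 (3.29 and 0.65). Of the 13 multipotent and lymphoid genes above the filter, 0 met the rule in either direction, and the median was 0.39 (0.52 and 0.29). After thinning, 2 of 12 met it upward, beside 568 of all 10449 genes, and the median was 0.10. Itgb2, the beta chain of leukocyte integrins, differed by 2.87 (3.99 and 1.76) and was read in 19 of 44 against 4 of 30 cells. Tfrc, the transferrin receptor of dividing and erythroid cells, differed by 1.68 (0.96 and 2.39).

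Platelet genes lay on both sides of 0, and most genes reported higher in old HSCs lay below it. Vwf, the von Willebrand factor gene of platelet-biased HSCs on chromosome 6 (125546774 to 125686679), had 53.03 and 21.9 CPM in progenitor-like cells against 256 and 335 CPM in marker-free cells, a difference of −3.06 (−2.25 and −3.87). It missed the rule because 1 cell gave 21.1% of its marker-free reads. It was read in 28 of 44 against 24 of 30 cells, and after thinning in 19 of 43 (44.2%, 29.1% to 60.1%) against 22 of 28 (78.6%, 59.05% to 91.7%). Selp, the P-selectin of platelets, lay on the other side at 2.27, with 60.1% of its progenitor-like reads from 1 cell, as did Itga2b, the platelet integrin, at 1.77 (0.94 and 2.59) and Gp5 at 5.20. Single cells weighed on this list. For 9 of its 15 genes above the filter 1 cell gave over 20% of the progenitor-like reads, and for 11 over 20% of the marker-free reads. Of the 15 megakaryocyte and platelet genes above the filter only F2r, the thrombin receptor, met the rule, at 1.80, beside 5.35% of all genes upward. The median of the 15 was 0.30 (0.22 and 0.28). Of 19 genes reported higher in old HSCs, 1 met the rule, Gpr183 upward at 1.54, beside 5.35% of all genes. Below 0 lay 14 of the 19 (73.7%), beside 40.2% of all genes. Their median was −0.47 (−0.62 and −0.76) with all cells, −1.06 (−1.41 and −0.82) without the cycling cells, and −0.81 after thinning. Clu, a secreted chaperone, had 0.516 and 8.30 CPM against 213 and 73.04 CPM, with 36.7% of its marker-free reads from 1 cell. Neo1, a netrin receptor, had 2.97 and 1.42 CPM against 35.2 and 28.005 CPM. For all 19 genes a single cell gave over 20% of the marker-free reads, so these values rest on few cells.

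Most of the remaining lists had medians within 0.5 of 0. By the size rule 5.35% of all genes were higher and 0.825% lower. Of 34 oxidative phosphorylation genes, Sdhc and Cox5a met the rule upward at 1.15 and 1.25. A positive difference was seen in 32 of the 34, beside 6310 of all 10547 genes. The list's median was 0.47 with all cells, 0.23 without the cycling cells and −0.06 for the cells with all 3 choosing genes. Glycolysis had a median of −0.03, adhesion genes 0.01, autophagy genes −0.04 and genes of the lysosome −0.01. Map1lc3b, which encodes LC3 itself, stood at 298 and 334 CPM against 299 and 364 CPM, a difference of −0.06. Reads of the eGFP part of the transgene had medians of 614 CPM in progenitor-like and 591 CPM in marker-free cells. In the lysosome list Ctsz, Gusb and Npc2 met the rule upward at 1.18, 1.24 and 1.43, and in the autophagy list Ulk2 at 1.27. These were 3 of 34 and 1 of 34 genes, beside the 5.35% of all genes. Immediate early genes had a median of −0.74 (−1.03 and −0.31), and of −0.27 (−0.72 and 0.27) with cells thinned to 100000 reads and classed again. Zfp36 and Ier3 met the rule downward at −1.28 and −1.04, Egr1 stood at −2.54 with 34.7% of its marker-free reads from 1 cell, and Fos met it upward at 2.10. Interferon genes had a median of 0.20 in the first table and −0.45 in the second. Of 28 cytokine receptor and JAK-STAT genes and of 11 myeloid genes, 0 met the rule in either direction, with medians of −0.27 and 0.41.

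**Figure D5:**
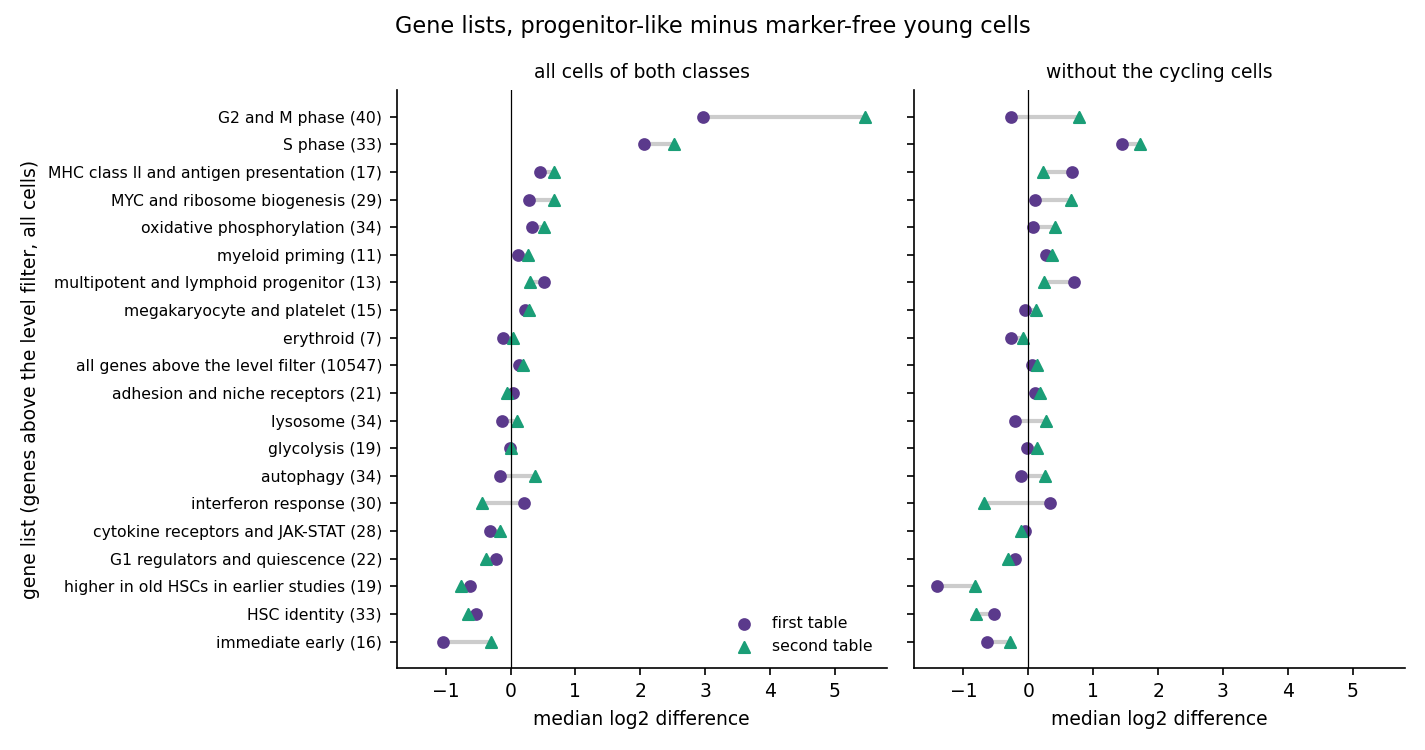
Median log2 difference, progenitor-like minus marker-free young cells, over the genes of each list that passed the level filter (number in brackets, for all cells), in the first table (circles) and the second (triangles), with all cells (left) and without the 11 cycling cells (right). S phase, at 2.05 and 2.53 with all cells and 1.44 and 1.72 without cycling cells, lies to the right in both panels, HSC identity lies to the left in both, and G2 and M phase lies at 2.97 and 5.46 with all cells and at −0.27 and 0.78 without the cycling cells.

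The same rule in old cells gave other shares, and smaller S phase and HSC identity medians. Progenitor-like cells were 32.8% of young cells (exact Clopper-Pearson 95% interval 24.97% to 41.5%), against 11.03% of old LO (6.31% to 17.5%), 23.1% of old MID (16.3% to 31.2%) and 23.3% of old HI cells (16.3% to 31.5%). Marker-free cells were 22.4% of young cells, against 39.7% of old LO, 33.6% of old MID and 19.4% of old HI cells. Each group is 1 sample, so they do not cover differences between animals. Cycling cells were 10 of 44 progenitor-like young cells, against 0 of 15 in old LO, 3 of 31 in old MID and 15 of 30 in old HI. The HSC identity median was −0.73 in young cells, against −0.20 in old LO, 0.07 in old MID and −0.22 in old HI. The S phase median was 2.60 in young cells, against −0.06, 0.46 and 1.33, and without cycling cells 1.69 against 0.59, −0.20 and 0.63. In old LO the S phase median had opposite signs in the 2 tables, at 1.34 and −1.19, while in old MID it was 0.80 and 0.34 and in old HI 0.82 and 1.83. Of the 87 genes lower in young progenitor-like cells, 63.2% and 71.3% lay below 0 in the tables of old LO, beside 54.7% and 53.5% of all genes. In old MID the shares were 52.9% and 70.1% beside 44.1% and 52.9%, and in old HI, for 85 genes, 57.6% and 57.6% beside 49.6% and 44.99%. Without cycling cells the genes were called anew in young cells, which gave another set of 91 lower genes, 89 of them in old HI. These were under the share of all genes in some tables. They had 50.5% beside 54.8% in the first table of old LO and 46.1% beside 53.4% in the second of old HI. Of the genes higher in young cells, 54.4% and 48.1% lay above 0 in old LO, beside 45.3% and 46.5% of all genes, 57.8% and 51.3% in old MID, beside 55.9% and 47.1%, and 54.04% and 67.7% in old HI, beside 50.4% and 54.99%. For the 296 higher genes called anew without cycling cells, the shares in old HI were 48.99% and 54.4%, beside 50.1% and 46.3%. Old LO had only 5 progenitor-like cells in its first table. Without cycling cells, the second table of old HI held only 4 progenitor-like and 8 marker-free cells.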

How the data were processed

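Per the submitters' processing notes, the mm10 build, DESeq2, featureCounts 2.0.0, Subread and STAR 2.7.3a were used; their roles, and whether counting used strand, are not given in the sources used here. The authors deposited 2 tables of raw read counts per gene and cell, without molecular identifiers, so intervals cover counting error only. Of the reads in the young columns 22.9% lay in genes, 32.2% in no feature, 4.26% were ambiguous and 40.1% were not aligned; these rows were left out of library sizes. Kept young cells had 60447 to 980182 nuclear gene reads (median 271443).

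Counts were summed per class and table and scaled to CPM with TMM factors over the 4 sums (edgeR 4.0.16, R 4.3.3), leaving out Cd34, Flt3 and Plac8, and taken as log2(CPM + 1), which understates differences of low genes. The level filter asked for a mean of 10 CPM over the sums and a read in 10% of cells. Scripts used Python 3.11.15, NumPy 2.4.6, pandas 2.3.3 and SciPy 1.17.1, and were tested on simulated data. A count model was not fitted, since each class is part of 1 sample. Members, lists and rules were chosen with earlier results of these data known. Genes were named by a rule: the 12 largest differences in each direction under the size rule, the 2 highest and 2 lowest of each list, and a fixed set of HSC and progenitor genes. Other genes, among them single members of the S phase, HSC identity, MYC, G1 and MHC lists, were named after their values were seen. A few genes that the rule names are not reported here. Promoter windows are from RefSeq (GRCm38.p6).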

Additional observations from a re-analysis of the deposited data

Results flagged for a closer look

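Zfp719, a zinc finger gene, was flagged because its difference had one sign in young cells and the opposite sign in old cells. In young cells it was −3.91 (−2.28 in the first table and −5.54 in the second), progenitor-like minus marker-free. By the same cell classes it was 0.34 and 0.11 in old LO, 1.69 and 1.25 in old MID and 1.58 and 3.78 in old HI cells. Zfp719 was read in 6 of 44 progenitor-like and 11 of 30 marker-free young cells, from 73 and 411 reads. The difference between young and old cells was not tested.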

How the results depend on the processing

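The 564 higher genes became 300 with a level filter of 50 CPM and a read in 25% of cells, 294 in the first table alone, 302 without cells with 20 or more G2 and M phase genes, 363 when cells were thinned as well, and 87 without cells with 8 or more. They became 289 for Cd34 with Plac8, 194 for Cd34 with Flt3, 6 for Flt3 with Plac8 and 2 for all 3 genes. The 87 lower genes became 57 with a pseudocount of 10 CPM, 56 with a class limit of 5 CPM, 46 without cells with 3 markers of another type, 45 and 19 in the first and second table alone, 227 for Cd34 with Plac8, 1.4e2 (to 2 digits) for Cd34 with Flt3, 1053 for Flt3 with Plac8 and 469 for all 3 genes. Each count stayed within 1.5 times under 14 other settings. Leaving out the cycling cells at 20 genes, with or without thinning, was added after seeing the data. In the thinned settings, cells were thinned to 100000 reads and classed again.

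Under Flt3 with Plac8, which rests on 8 and 2 progenitor-like cells, the medians were −0.65 for S phase, −1.74 for G2 and M phase and −0.41 for MHC genes. There the differences were −2.11 for Cdca5, −0.65 for Gatm, −0.36 for Cdt1, −2.44 for Sdf2l1, −0.71 for Cdyl2, −1.64 for P2ry2, −1.25 for Stn1, −2.51 for Dtl, −2.81 for Tfrc, −0.29 for Ndrg1, −1.32 for Srm, −0.89 for Cox5a, −2.38 for Fos and −0.87 for Itgb2. Under all 3 genes, which rests on 7 and 1 cells, the medians were −0.061 for oxidative phosphorylation and −0.76 for MHC genes, and the differences −1.06 for Tfrc, −1.38 for Cox5a and −0.81 for Fos. Without cells with 8 or more G2 and M phase genes that list's median was −0.55 and Smc4 stood at −0.043; at 20 genes Smc4 stood at −0.012. The cause of these turns was not tested. The medians of the HSC identity list, of genes reported higher in old HSCs, and of the immediate early and cytokine receptor lists kept their sign under every setting run; the S phase median did so except under Flt3 with Plac8. List medians near 0, among them autophagy, lysosome, glycolysis and adhesion genes, had either sign. Median-ratio factors and no factor moved the median over all genes from 0.17 to 0.06 and 0.05. Depth limits the marker-free class most, which holds the fewest reads. No paired analysis was possible because the cells' numbers name single cells and no test was made.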

Other observations

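Without the cycling cells, the 12 highest genes that met the size rule held Dtl, Cdyl2, Stn1 and Slc29a1 again. Others among them are named because of their values. Tmem206, a chloride channel gene, had 703 reads in 12 of 34 progenitor-like cells and 0 reads in 29 marker-free cells, and did not meet the rule with all cells. Rras2, a RAS-related GTPase gene, differed by 3.56 (2.46 and 4.65), and Xrcc5, which encodes the Ku80 protein of DNA end joining, by 3.28 (0.79 and 5.77). Akap17b, Zfp3, Zfp692 and Paqr5 differed by 4.27, 3.45, 3.53 and 3.19, of which Zfp3 and Paqr5 did not meet the rule with all cells. In marker-free cells Akap17b had 5 reads in all, so its value leans on the pseudocount.

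The list of genes reported higher in old HSCs was summed per young cell by the number of choosing genes. Its summed CPM had medians of 1097, 1019, 567 and 715 in first-table cells with 0, 1, 2 and 3 of the genes, and of 1308, 952, 766 and 191 in the second table, where the last is 1 cell. Cells with 2 or 3 genes had lower medians than cells with 0 or 1 in both tables, and in the first table the median with 3 was above that with 2.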
